A study of Mus musculus with 24 samples.

Results

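The genes described here are 7 chemokine genes, Ccl2, Ccl7, Ccl12, Ccl8, Ccl6, Ccl9 and Cxcl12, and the 2 S100 alarmin genes S100a8 and S100a9. They are 9 of the 17711 genes that have a probe on the array. They were picked by name as the chemokines and S100 alarmins of interest in these muscles, with their differences between denervated and control muscle already known, so those differences are given as descriptions with no p-value, and counts of calls among them support nothing. The array holds 12 probes for them. Of these, 11 were detected often enough to be kept, and the brightest kept probe of each gene was used, so that all 9 genes are described and none was lost to the filter.

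Chemokines are small secreted proteins that draw leukocytes along a concentration gradient by binding receptors on their surface. In the mouse, Ccl2, Ccl7 and Ccl12 are the ligands of Ccr2 that recruit monocytes, and mouse Ccl8 signals through Ccr8. Ccl6 and Ccl9 are close relatives made largely by macrophages and other myeloid cells and act through Ccr1. Cxcl12 is made by stromal and endothelial cells and holds cells carrying Cxcr4 in place, and Ackr3 scavenges it. S100a8 and S100a9 are calcium-binding proteins that pair into calprotectin, are abundant in neutrophils and monocytes, and act outside the cell as alarmins that bind Tlr4. In injured muscle these signals are known for bringing in monocytes, which become macrophages.

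RNA came from the triceps surae, the calf muscle group, of C57/Bl6 mice aged 6 months. The 8 groups of 3 samples were, at day 3 and again at day 14, denervated MuRF1 knockout, control MuRF1 knockout, denervated wild type and control wild type muscle. Denervated means that a piece of the sciatic nerve had been cut out on 1 side, and controls were littermates that had no operation, so nerve loss and surgery cannot be told apart. MuRF1 is the striated-muscle ubiquitin ligase encoded by Trim63, and the labels name neither the knockout allele nor if the 3 samples of each group are 3 animals. The p-values therefore speak only for the spread of these samples, which may be technical.

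The measure is a log2 normalized probe intensity from 1-colour Illumina BeadChips, on which an undetected probe lies near 5. Median raw intensity per array was 124.7 to 199.8, between 15532 and 18755 of 46632 probes were detected, and samples of a group correlated at 0.974 to 0.993 across genes. Trim63, measured by 1 probe whose place relative to the deletion is not known, was 21.1-fold lower in denervated knockout than in denervated wild type muscle at day 14 (limma adjusted p = 1.48e-13) and, undetected in the knockout, at least 44.7-fold lower at day 3. All 8 muscle fibre markers listed and all 6 endothelial markers were kept. In a bulk sample, fewer cells of a type and less RNA per cell cannot be told apart.

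The 6 Ccl genes lie on chromosome 11 and the 2 S100 genes on chromosome 3 (RefSeq, build GRCm38.p6). Ccl2 spans chr11:82035577-82037452, Ccl7 chr11:82045712-82047525, Ccl12 chr11:82101845-82103399 and Ccl8 chr11:82115185-82116799, side by side. Ccl9 at chr11:83572917-83578636 and Ccl6 at chr11:83587886-83593087 form a second group. S100a8 lies at chr3:90669071-90670034 and S100a9 at chr3:90692630-90695721, while Cxcl12 lies apart at chr6:117168535-117181368. The probe letters were not used here, so how far a probe for one of these related genes also binds the transcript of another was not tested.

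RefSeq promoter sequences (GRCm38.p6) were matched for 7 of the 9 genes. The 250 bases before the start of 4 of them are shown because these 4 are 2 pairs of neighbours. Over the 24 arrays Pearson r was 0.93 for Ccl12 and Ccl8, and 0.39 for S100a8 and the dim S100a9. Ccl8, but not Ccl12, was apart from its controls in wild type muscle at day 14. Capitals mark TATAAA in the first 3 sequences and a match to the C/EBP motif in S100a9.
Ccl12 (chr11:82101595-82101844, plus strand): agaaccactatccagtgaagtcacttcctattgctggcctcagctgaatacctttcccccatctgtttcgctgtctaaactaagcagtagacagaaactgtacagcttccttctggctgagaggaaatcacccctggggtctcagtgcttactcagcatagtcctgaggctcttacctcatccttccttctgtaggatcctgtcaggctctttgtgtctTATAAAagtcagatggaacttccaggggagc
Ccl8 (chr11:82114935-82115184, plus strand): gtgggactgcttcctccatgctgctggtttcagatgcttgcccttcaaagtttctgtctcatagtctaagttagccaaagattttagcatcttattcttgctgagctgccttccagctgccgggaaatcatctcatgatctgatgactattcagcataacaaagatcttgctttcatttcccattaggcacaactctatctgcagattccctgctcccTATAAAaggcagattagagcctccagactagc
S100a8 (chr3:90668821-90669070, plus strand): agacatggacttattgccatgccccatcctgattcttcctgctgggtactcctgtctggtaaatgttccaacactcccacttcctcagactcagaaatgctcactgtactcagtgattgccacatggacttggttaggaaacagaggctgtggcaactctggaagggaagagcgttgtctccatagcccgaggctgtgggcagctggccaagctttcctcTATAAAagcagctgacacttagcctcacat
S100a9 (chr3:90695722-90695971, minus strand): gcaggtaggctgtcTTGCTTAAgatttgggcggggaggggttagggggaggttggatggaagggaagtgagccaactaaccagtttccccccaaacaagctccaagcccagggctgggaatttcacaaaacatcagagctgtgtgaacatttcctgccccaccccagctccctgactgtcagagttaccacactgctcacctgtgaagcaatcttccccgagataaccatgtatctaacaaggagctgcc
TATAAA on the forward strand began 31 bases before the start in Ccl12, 32 in Ccl8 and 30 in S100a8. A forward TATAAA lying 40 to 20 bases before the start was found in these 3 of the 7 promoters, and in 1.91% of all 32851 promoters of the table. Over the whole window and both strands, TATAAA was present in 4 of 7, against 12.4% of all promoters. The C/EBP motif TTNNGCAA, was found in 1 of 7 (S100a9, on the strand opposite to the one printed, so that it shows there as TTGCTTAA) and in 9.56% of all. The NF-kB motif was found in 1 of 7 (Ccl9) and 7.25% of all, and the AP-1 motif TGANTCA also in 1 of 7 (Ccl9) and 6.75% of all. Neither the interferon-response motif GAAANNGAAA nor the STAT motif TTCCNGGAA was in any of the 7, against 2.98% and 0.913% of all. Both strands were searched for each motif, and matches of different motifs did not overlap in the 7. These letter matches are descriptions and not binding sites.

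**Figure D1:**
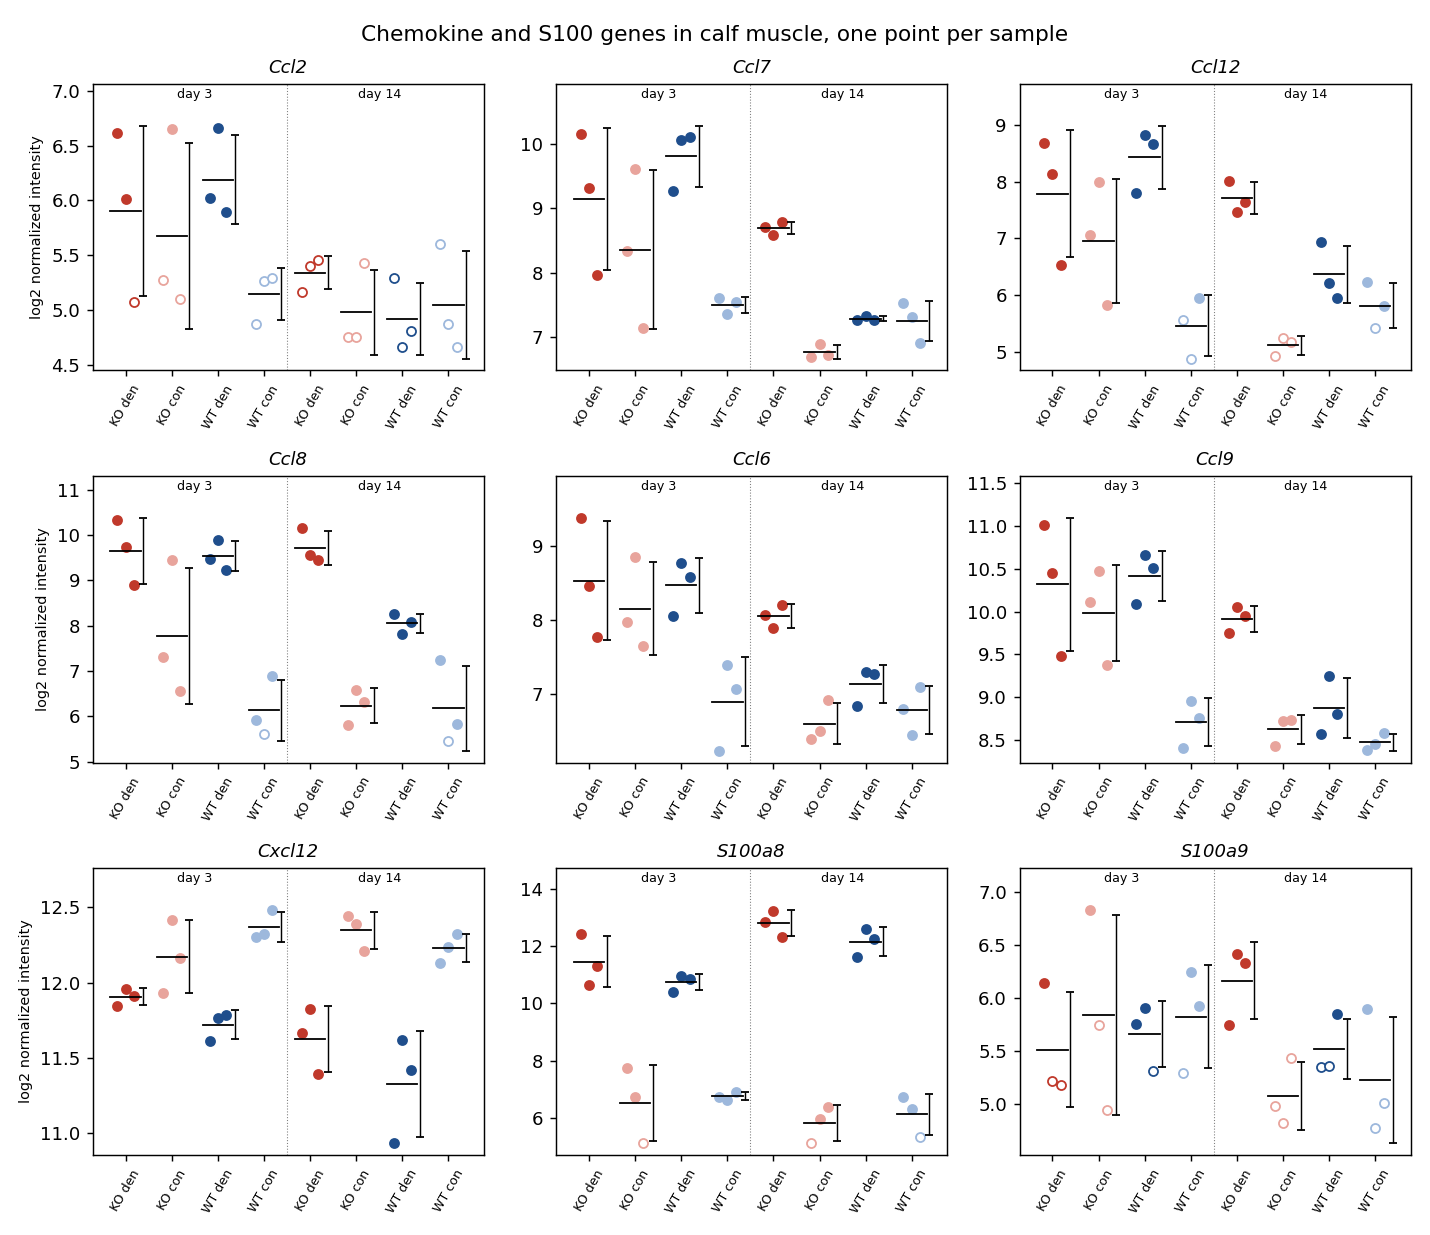
Log2 normalized intensity of the 9 genes in each of 24 samples, 1 panel a gene, day 3 on the left and day 14 on the right of each panel. Points are samples, filled where the probe was detected and open where it was not; horizontal lines are group means and bars are SD (n = 3). S100a8 stands apart in all 4 denervated groups, Ccl7, Ccl12, Ccl8, Ccl6 and Ccl9 are raised in denervated wild type muscle at day 3 and denervated knockout muscle at day 14, and the day 3 knockout groups scatter widely.

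Of the Ccr2 ligands, Ccl7 and Ccl12 shared one pattern: high in denervated wild type muscle at day 3, near the controls there at day 14, and above the controls in denervated knockout muscle at day 14. Ccl7 at day 3 had log2 intensities of 10.14, 9.32 and 7.96 in denervated knockout muscle, against 8.33, 9.60 and 7.14 in control knockout muscle. Ccl7 in wild type muscle at day 3 had 9.26, 10.05 and 10.10 after denervation, against 7.61, 7.36 and 7.54 in controls. The wild type groups do not overlap, while in the knockout control replicate 2 was brighter than denervated replicates 2 and 3. At day 14 Ccl7 had 8.71, 8.59 and 8.78 in denervated knockout muscle, against 6.70, 6.89 and 6.73 in control knockout muscle. Ccl7 at day 14 had 7.27, 7.33 and 7.27 in denervated wild type muscle, against 7.54, 7.31 and 6.92 in control wild type muscle. The day 14 knockout groups are wide apart and the day 14 wild type groups overlap. As log2 differences, denervated minus control, Ccl7 was 0.78 ± 0.45 (SE) in knockout and 2.30 ± 0.45 in wild type muscle at day 3, and 1.92 ± 0.45 in knockout and 0.04 ± 0.45 in wild type muscle at day 14. The brightest groups, denervated wild type and denervated knockout at day 3, overlap each other, while the dimmest, control knockout at day 14, lies just below every other group.

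Ccl12 at day 3 had 8.68, 8.14 and 6.53 in denervated knockout muscle, against 7.05, 8.0 and 5.82 in control knockout muscle. Ccl12 in wild type muscle at day 3 had 7.80, 8.82 and 8.66 after denervation, against 5.56, 4.88 and 5.94 in controls, of which replicate 3 alone was detected. As with Ccl7, the groups overlap in the knockout and not in the wild type. At day 14 Ccl12 had 8.01, 7.47 and 7.63 in denervated knockout muscle, against 4.93, 5.24 and 5.16 in control knockout muscle, where it was detected on no array. Ccl12 at day 14 had 6.93, 6.20 and 5.95 in denervated wild type muscle, against 6.22, 5.42 and 5.80 in control wild type muscle. The knockout groups at day 14 are apart, by at least 4.23-fold, and the wild type groups overlap. The denervated minus control log2 differences were 0.83 ± 0.49 (SE) in knockout and 2.97 ± 0.49 in wild type muscle at day 3, and 0.55 ± 0.49 in wild type muscle at day 14. A second Ccl12 probe, detected on 13 of 24 arrays, gave 6.54 ± 1.05 in denervated against 5.37 ± 0.82 in control knockout muscle and 7.09 ± 0.70 against 5.25 ± 0.55 in wild type muscle at day 3 (SD, n = 3 each). At day 14 that probe gave 6.55 ± 0.20 in denervated against 5.15 ± 0.15 in control knockout muscle, and 5.70 ± 0.09 against 5.45 ± 0.40 in wild type muscle, the same order of groups within each genotype and day as the brighter probe. The probes differed in control knockout muscle at day 3, where the brighter averaged 6.96, detected on 3 arrays, and the second 5.37, detected on 1. The day 3 genotype interaction given below for Ccl12 is that of the brighter probe.

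Ccl8, the mouse Ccr8 ligand, was higher in denervated muscle by the mean of all 4 pairs of groups. Ccl8 at day 3 had 10.32, 9.73 and 8.89 in denervated knockout muscle, against 7.30, 9.45 and 6.57 in control knockout muscle. Ccl8 at day 3 had 9.47, 9.89 and 9.23 in denervated wild type muscle, against 5.91, 5.60 and 6.89 in control wild type muscle. Only in the day 3 knockout did a control sample, the second, reach above a denervated one. Ccl8 at day 14 had 10.14, 9.55 and 9.45 in denervated knockout muscle, against 5.81, 6.58 and 6.32 in control knockout muscle. Ccl8 at day 14 had 8.25, 7.82 and 8.08 in denervated wild type muscle, against 7.24, 5.47 and 5.82 in control wild type muscle. Neither genotype overlaps at day 14, and all 3 denervated knockout samples lie above all 3 denervated wild type samples. The log2 differences were 1.87 ± 0.55 (SE) in knockout and 3.39 ± 0.55 in wild type muscle at day 3, and 3.48 ± 0.55 in knockout and 1.87 ± 0.55 in wild type muscle at day 14. In wild type controls the second sample of each day did not detect Ccl8.

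Ccl2, the best-known monocyte attractant of the group, was dim throughout and detected on 6 of 24 arrays. Ccl2 at day 3 had 6.62, 6.02 and 5.08 in denervated knockout muscle, against 5.27, 6.65 and 5.10 in control knockout muscle, detected in the first 2 denervated samples and in the second control. Ccl2 at day 3 had 6.02, 6.66 and 5.90 in denervated wild type muscle, all detected, against 4.87, 5.27 and 5.29 in control wild type muscle, none detected, a difference of at least 1.28-fold. At day 14 no array detected Ccl2. Its level at that day therefore has only an upper bound and no order between groups.

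Ccl6 and Ccl9, the Ccr1 ligands of myeloid cells, followed Ccl7. Ccl9 at day 3 had 11.02, 10.46 and 9.49 in denervated knockout muscle, against 10.11, 10.48 and 9.37 in control knockout muscle. Ccl9 at day 3 had 10.09, 10.66 and 10.50 in denervated wild type muscle, against 8.40, 8.96 and 8.76 in control wild type muscle. All 3 knockout controls of day 3 lie above all 3 wild type controls of that day, as they do for Ccl6. The controls of day 3 alone were not tested, and how many of all genes are so separated was not counted. The Ccl9 controls of day 14 overlap. At day 14 Ccl9 had 9.76, 10.05 and 9.95 in denervated knockout muscle, against 8.43, 8.72 and 8.73 in control knockout muscle. Ccl9 at day 14 had 8.57, 9.25 and 8.81 in denervated wild type muscle, against 8.38, 8.45 and 8.58 in control wild type muscle. The knockout groups are apart and the wild type groups overlap. Its log2 differences were 0.33 ± 0.30 (SE) in knockout and 1.71 ± 0.30 in wild type muscle at day 3, and 1.29 ± 0.30 in knockout and 0.40 ± 0.30 in wild type muscle at day 14.

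Ccl6 averaged 8.54 ± 0.81 in denervated and 8.16 ± 0.62 in control knockout muscle at day 3, and 8.47 ± 0.37 in denervated and 6.90 ± 0.60 in control wild type muscle (SD, n = 3 each). At day 14 it averaged 8.06 ± 0.16 in denervated and 6.60 ± 0.28 in control knockout muscle, and 7.13 ± 0.26 in denervated and 6.78 ± 0.33 in control wild type muscle. Its denervated and control samples were apart in wild type muscle at day 3 and in knockout muscle at day 14, and overlapped in the other 2 pairs.

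The day 3 knockout samples differed among themselves for all 6 Ccl genes at once. Among the controls, replicate 2 was the highest and replicate 3 the lowest for each of the 6, and among the denervated samples replicate 1 was the highest and replicate 3 the lowest for each. For Ccl2 the order of control replicates 1 and 3 is not known, since neither detected it. Shared ranks were not limited to these 2 groups. Control knockout replicate 1 of day 14 had the lowest value for 6 of 6. No array of that group detected Ccl2 or Ccl12, so the order of these 2 genes there is not known. Denervated wild type replicate 2 of day 3 was the highest for 5 of 6. The 10 macrophage and monocyte markers measured moved with the Ccl genes in the day 3 knockout: their summed linear intensity was 15554 to 29161 in denervated and 6929 to 13153 in control knockout muscle at day 3, and 26498 to 30836 in denervated and 5920 to 6494 in control wild type muscle. At day 14 the sum was 13947 to 15602 in denervated and 3912 to 4653 in control knockout muscle, and 8283 to 13912 in denervated and 4955 to 6523 in control wild type muscle. Of these 10 markers, 3 were higher after denervation in knockout and 10 in wild type muscle at day 3, and 9 in knockout and 3 in wild type muscle at day 14, none lower (limma). The share of all genes passing in either direction was 35.8% in knockout and 37.5% in wild type muscle at day 3. At day 14 it was 36.7% and 41.5%. The galectin Lgals3 differed by 2.22 and 3.70 log2 in knockout and wild type muscle at day 3 and by 3.14 and 2.46 at day 14, and the pore-forming Mpeg1 by 0.85, which did not pass, and 2.09 at day 3 and by 1.97 and 1.68 at day 14. Mpeg1 was thus among the 3 markers that passed in wild type muscle at day 14. Lgals3 was the brightest of the 10 in each denervated group, at 12.63 to 14.10 log2 by group mean, so it carries much of those sums. In wild type muscle at day 14, Lyz2, C1qb, C1qc and Ms4a7 had lower means in denervated than control muscle, and the other markers higher means. Of the 12 macrophage and monocyte markers with a probe, the scavenger receptor Cd163 was detected on no array and the integrin Itgam on 1. The part of these cells in the chemokine differences was not tested.

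Cxcl12, the stromal ligand of Cxcr4, ran the other way and was lower after denervation. Cxcl12 at day 3 had 11.85, 11.96 and 11.91 in denervated knockout muscle, against 11.93, 12.42 and 12.17 in control knockout muscle. Cxcl12 at day 3 had 11.61, 11.77 and 11.78 in denervated wild type muscle, against 12.30, 12.32 and 12.48 in control wild type muscle. The wild type groups are apart, and 1 knockout control falls among the denervated samples. Cxcl12 at day 14 had 11.66, 11.82 and 11.39 in denervated knockout muscle, against 12.44, 12.39 and 12.21 in control knockout muscle. Cxcl12 at day 14 had 10.93, 11.62 and 11.42 in denervated wild type muscle, against 12.13, 12.24 and 12.32 in control wild type muscle. Neither genotype overlaps at day 14. The log2 differences were -0.27 ± 0.16 (SE) in knockout and -0.65 ± 0.16 in wild type muscle at day 3, and -0.72 ± 0.16 in knockout and -0.91 ± 0.16 in wild type muscle at day 14. A second Cxcl12 probe, detected on all 24 arrays, averaged 7.81 ± 0.74 in denervated against 8.29 ± 0.63 in control knockout muscle and 7.86 ± 0.25 against 8.59 ± 0.21 in wild type muscle at day 3 (SD, n = 3 each). At day 14 it averaged 7.26 ± 0.27 against 7.79 ± 0.19 in knockout and 6.90 ± 0.30 against 8.17 ± 0.24 in wild type muscle, lower in denervated muscle in each pair, while the remaining probe was detected on no array. The summed intensity of 6 endothelial markers was 4636 to 4934 in denervated and 4282 to 5424 in control knockout muscle and 3548 to 3987 in denervated and 5039 to 5410 in control wild type muscle at day 3. At day 14 it was 3577 to 3924 in denervated and 4652 to 5244 in control knockout muscle, and 2738 to 3402 in denervated and 3944 to 4673 in control wild type muscle. Of the 6 endothelial markers, 1 was higher in knockout muscle and 3 were lower in wild type muscle at day 3, and 3 were lower in knockout and 2 in wild type muscle at day 14 (limma). The summed intensity of 7 fibroblast markers at day 3 was 31608 to 40551 in denervated and 35257 to 39353 in control knockout muscle. In wild type muscle it was 24910 to 31942 and 33585 to 38779. At day 14 it was 28252 to 29278 and 36337 to 39036 in knockout muscle. The day 14 wild type sums were 22478 to 26374 and 35503 to 38978. Dcn, by far the brightest of the 7 at 14.29 to 14.97 log2 by group mean, makes up most of these sums. By mean log2 over the 7, denervated and control samples overlapped in both genotypes at day 3 (wild type 10.46 to 10.99 against 10.62 to 10.77). At day 14 they overlapped in knockout (10.35 to 10.50 against 10.34 to 10.48) and were apart in wild type muscle (9.92 to 10.24 against 10.38 to 10.54). Of the 7, 2 rose in knockout and 1 in wild type muscle at day 3 (limma). In each pair 1 fell, except 3 in wild type at day 14. For both marker lists, the share of all genes passing in either direction was 35.8% in knockout and 37.5% in wild type muscle at day 3. At day 14 that share was 36.7% in knockout and 41.5% in wild type muscle, and neither list was tested as a set. The part of either cell type in the Cxcl12 difference was not tested.

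S100a8, the partner of S100a9 in calprotectin, had the largest denervated minus control differences of the 9 genes in each of the 4 pairs of groups. S100a8 at day 3 had 12.41, 10.65 and 11.31 in denervated knockout muscle, against 7.75, 6.72 and 5.12 in control knockout muscle. S100a8 at day 3 had 10.42, 10.97 and 10.85 in denervated wild type muscle, against 6.75, 6.63 and 6.92 in control wild type muscle. Both genotypes were apart from their controls by more than the spread of either group. S100a8 at day 14 had 12.84, 13.23 and 12.33 in denervated knockout muscle, against 5.14, 5.98 and 6.38 in control knockout muscle. S100a8 at day 14 had 11.62, 12.61 and 12.24 in denervated wild type muscle, against 6.72, 6.33 and 5.34 in control wild type muscle. No groups overlap: the dimmest denervated sample of all stood at 10.42 and the brightest control at 7.75. The log2 differences were 4.92 ± 0.52 (SE) in knockout and 3.98 ± 0.52 in wild type muscle at day 3, and 6.97 ± 0.52 in knockout and 6.03 ± 0.52 in wild type muscle at day 14, with 1 control sample undetected in each pair except day 3 wild type. On the authors' processed linear scale the medians were 2518 in denervated and 90.2 in control knockout muscle and 1831 and 91.9 in wild type muscle at day 3, and 7318 and 47.3 in knockout and 4813 and 64.7 in wild type muscle at day 14.

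S100a9 was different: its 1 probe was dim everywhere and detected on 11 of 24 arrays. S100a9 at day 3 had 6.13, 5.22 and 5.18 in denervated knockout muscle, against 6.82, 5.74 and 4.95 in control knockout muscle. S100a9 at day 3 had 5.75, 5.91 and 5.31 in denervated wild type muscle, against 5.29, 6.24 and 5.93 in control wild type muscle. The denervated and control groups overlap in both genotypes. S100a9 at day 14 had 5.74, 6.41 and 6.33 in denervated knockout muscle, all detected, against 4.98, 4.82 and 5.43 in control knockout muscle, none detected, a difference of at least 1.45-fold. S100a9 at day 14 had 5.35, 5.36 and 5.84 in denervated wild type muscle, against 5.90, 4.77 and 5.01 in control wild type muscle, again overlapping.

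Few other neutrophil genes were measurable. Of the 12 neutrophil markers with a probe 5 were kept, and Mmp8, Il1r2 and Cxcr2 were detected on no array and Ngp, Ltf, Mpo and Elane on at most 1 of 24. The summed linear intensity of the 5 was 394 to 659 in denervated and 345 to 450 in control knockout muscle and 360 to 380 in denervated and 327 to 392.4 in control wild type muscle at day 3. At day 14 it was 412 to 448 in denervated and 384 to 442 in control knockout muscle, and 313 to 364 in denervated and 389 to 461 in control wild type muscle. Lcn2, an iron-binding protein of neutrophil granules that many stressed tissues also make, rose by 2.32 log2 in knockout and 1.58 in wild type muscle at day 3, at least 3.25-fold and 2.03-fold, and was undetected in all day 14 groups. The gelatinase Mmp9 fell by 0.83 log2 in knockout and 0.77 in wild type muscle at day 3 and by 0.84 in wild type muscle at day 14 (limma, adjusted p under 0.05 for each), and Retnlg rose in knockout muscle at day 14, by at least 1.10-fold, detected on 2 of 3 denervated and on 0 of 3 control arrays. The part of neutrophils in the S100a8 difference was not tested.

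**Figure D2:**
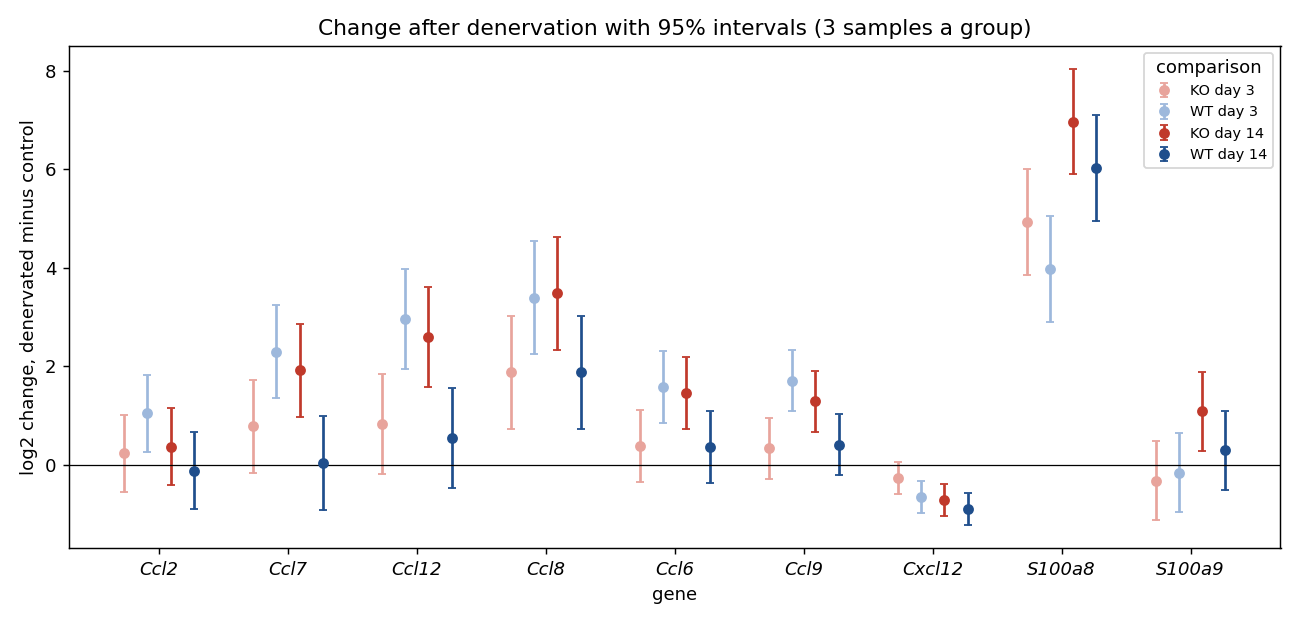
Denervated minus control difference in log2 normalized intensity of each gene, with 95% confidence intervals, in knockout and wild type muscle at days 3 and 14 (3 samples a group). S100a8 is highest in all 4 comparisons, the Ccl genes other than Ccl2 are higher in wild type at day 3 and knockout at day 14 than in the other 2 comparisons, and Cxcl12 lies below 0.

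As a description of how the choice fell, 2 of the 9 genes were called higher and 0 lower after denervation in knockout muscle at day 3, and 7 higher and 1 lower in wild type muscle at day 3 (limma, adjusted p under 0.05 over 11317 genes). At day 14 the counts were 7 higher and 1 lower in knockout and 2 higher and 1 lower in wild type muscle. Of all genes, 35.8% passed in either direction in knockout and 37.5% in wild type muscle at day 3, and 36.7% in knockout and 41.5% in wild type muscle at day 14. The medians over the 9 genes were 0.38 log2 in knockout and 1.71 in wild type muscle at day 3, and 1.46 in knockout and 0.35 in wild type muscle at day 14, against 0.01 to 0.05 over all genes. The genes were chosen with these contrasts known, so nothing is read from their counts against those shares, and the counts test nothing. The 2 in knockout muscle at day 3 were Ccl8 and S100a8. That count was 4 without control replicate 2 and 5 without denervated replicate 3, and 1 without control replicate 3 or without denervated replicate 1.

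Knockout was then set against wild type muscle of the same treatment and day. In denervated muscle at day 14, 1 of the 9 genes passed: Ccl9 was higher in the knockout by 1.04 log2 (95% interval 0.42 to 1.66, limma adjusted p = 0.0382), or 2.06-fold, with all 3 knockout samples above all 3 wild type samples. Of all genes, 2.70% were higher and 6.92% differed. Ccl7, Ccl12, Ccl8 and Ccl6 also had all 3 knockout samples above all 3 wild type samples, so that 5 of 9 did, against 13.4% of all genes, but none of the 4 passed. Ccl8 differed by 1.67 (0.52 to 2.81, adjusted p = 0.0724), Ccl7 by 1.40 (0.46 to 2.35, 0.0669), Ccl12 by 1.34 (0.33 to 2.36, 0.102) and Ccl6 by 0.92 (0.19 to 1.66, 0.121). S100a8 differed by 0.65 with an interval of -0.43 to 1.72. The call on Ccl9 was lost when denervated wild type replicate 1 or 3, or any of the 3 denervated knockout replicates, was left out, with adjusted p of 0.0533 to 0.145 and differences of 0.89 to 1.13. The macrophage and monocyte markers had a median difference of 0.66 log2 in the same contrast, against -0.01 over all genes, and 0 of 10 passed. Their part in the Ccl difference was not tested.

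In denervated muscle at day 3, 0 of the 9 genes differed between knockout and wild type by limma, where 7.17% of all genes differed. The differences lay between -0.66 (Ccl7, interval -1.61 to 0.28) and 0.71 (S100a8, -0.36 to 1.79), and the widest intervals reach past 2-fold. In control muscle over both days 0 of 9 differed after adjustment, against 3.30% of all genes. Ccl9 was nearest, 0.72 log2 higher in the knockout (0.28 to 1.16, adjusted p = 0.0601), and it passed without the third day 3 knockout control (0.87, adjusted p = 0.0142).

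Whether the denervation difference itself differed between genotypes was tested as an interaction, knockout minus wild type. This test and the day interaction after it contain the denervation differences that were known when the genes were chosen, so neither is independent of the choice. At day 14, 0 of 9 passed by limma, against 12.5% of all genes. Ccl7 was 1.88 log2 (0.55 to 3.22, adjusted p = 0.0586). Ccl12 had an adjusted p of 0.0559, and its fitted size is left out since no day 14 knockout control detected it. At day 3, 0 of 9 passed, against 1.08% of all genes, and the median over the 9 was -1.20. Without the third control sample of the day 3 knockout 3 passed, Ccl7 at -2.13, Ccl12 at -2.71 and Ccl9 at -1.68, and without the first denervated knockout sample 4 passed, Ccl7, Ccl12, Ccl6 and Ccl9.

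The denervation difference at day 14 minus that at day 3 was tested in the same way. In wild type muscle 3 of 9 genes passed, all lower at day 14: Ccl7 at -2.26 log2 (-3.60 to -0.93, limma adjusted p = 0.0224), Ccl12 at -2.42 (-3.85 to -0.98, adjusted p = 0.0230) and Ccl9 at -1.31 (-2.18 to -0.43, adjusted p = 0.0427), where 6.20% of all genes were lower and 13.7% differed. The Ccl12 size is that of the brighter probe, which was detected in only 1 of 3 wild type controls of day 3. S100a8 went the other way, 2.05 higher at day 14 (0.53 to 3.57, adjusted p = 0.0664), and did not pass. In the knockout 0 of 9 passed, against 20.6% of all genes. S100a8 was nearest there too, at 2.04 (0.53 to 3.56, adjusted p = 0.0515). In wild type muscle Ccl7 no longer passed without day 3 denervated replicate 2 or 3 or day 14 control replicate 1. Ccl12 no longer passed without any of these 3, nor without day 3 control replicate 2 or day 14 denervated replicate 2 or 3. Ccl9 held only without day 3 control replicate 2, day 3 denervated replicate 1 or day 14 denervated replicate 2. In the knockout 6 genes passed without the third day 3 control and 5 without the first day 3 denervated sample, and 1 without the third control or the third denervated sample of day 14. In wild type muscle 6 of the 10 macrophage and monocyte markers were lower by the same interaction, Ms4a7 at -1.77, and in the knockout 0 of 10 passed.

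Control muscle itself differed between the days. Day 14 minus day 3 over both genotypes, 3 of 9 genes were lower: Ccl7 at -0.92 log2 (-1.59 to -0.25, limma adjusted p = 0.0280), Ccl6 at -0.84 (-1.36 to -0.32, adjusted p = 0.0117) and Ccl9 at -0.80 (-1.24 to -0.36, adjusted p = 0.00537). Of all genes, 17.9% were lower and 41.4% differed, and day and any difference in how the samples of each day were handled cannot be told apart. The call on Ccl7 was lost without day 3 knockout control replicate 2, day 14 wild type control replicate 3 or day 14 knockout control replicate 1. With the number of probes detected on each array as a covariate, 0 of 9 passed, and Ccl7 was 0.24 and Ccl9 0.013. In the same contrast 8 of 10 macrophage and monocyte markers were lower. Counts of 7 and 5 genes were reached without the third day 3 knockout control and the first day 14 wild type control.

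**Figure D3:**
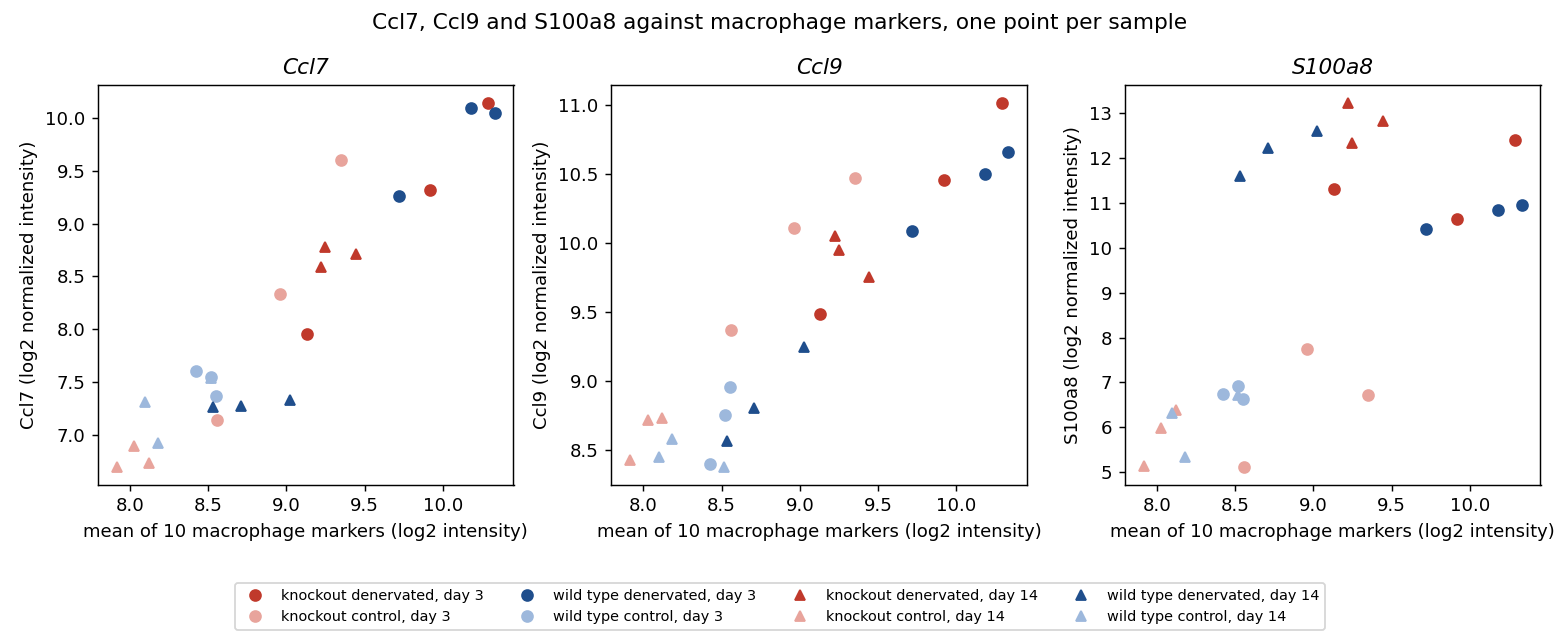
Log2 normalized intensity of Ccl7, Ccl9 and S100a8 against the mean log2 intensity of the 10 macrophage and monocyte markers measured, 1 point a sample, circles for day 3 and triangles for day 14. Ccl7 and Ccl9 lie along 1 band over all 24 samples, whereas for S100a8 the denervated samples form a separate cloud above the controls. Marker means overlap only in part, 8.53 to 10.33 in denervated and 7.92 to 9.35 in control samples.

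Across the 24 arrays the Ccl genes ran close together, and these correlations are descriptions, since the arrays share group, day and normalization. Pearson r was 0.97 between Ccl6 and Ccl9, 0.94 between Ccl7 and Ccl12 and 0.93 between Ccl12 and Ccl8. Within groups, over deviations from each group's mean, r was 0.87, 0.89 and 0.82 for the same pairs. S100a8 and S100a9 had r = 0.39 over all arrays and 0.68 within groups. Among all tested genes, Ccl7 was most like the histone gene H2ac23 (r = 0.96), the complement gene C1qa (0.96) and the selectin ligand Selplg (0.95). Ccl12 was most like the leukocyte actin-binding gene Coro1a (0.95), and Ccl8 like Mpeg1 (0.94) and Lilr4b (0.93). Ccl9 was most like the complement gene Cfp (0.97), Ccl6 and Fxyd5 (0.96), and Ccl6 like Ccl9, Fxyd5 and Cfp. Cxcl12 was most like the VEGF receptor gene Flt1 (0.95), Abca8a (0.91) and the caveolin gene Cav1 (0.90). S100a8 was most like Csrp3, a Z-disc protein gene of muscle (0.97), Fez1 (0.97) and Pkig (0.96).

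The other ligands of the family behaved unevenly. For the counts of this list and of the lists that follow, the share of all genes passing in either direction was 35.8% in knockout and 37.5% in wild type muscle at day 3. At day 14 that share was 36.7% in knockout and 41.5% in wild type muscle, and no list was tested as a set. Of 12 other CC chemokines tested, 0 rose and 4 fell in knockout and 0 and 2 in wild type muscle at day 3, and 5 rose and 1 fell in knockout and 0 and 4 in wild type muscle at day 14. Their median log2 changes were -0.55 in knockout and -0.27 in wild type muscle at day 3 and 0.33 and -0.10 at day 14, against 0.01 to 0.05 over all genes. Ccl27a fell by 1.55 log2 in knockout and 1.29 in wild type muscle at day 3 and by 0.85 in wild type muscle at day 14. The eosinophil attractant Ccl11 fell by 1.21 in knockout muscle at day 3 and by 0.85 in knockout and 1.79 in wild type muscle at day 14. Ccl24, a second eosinophil attractant, fell by 1.48 and 1.23 at day 3 and by 1.37 in wild type muscle at day 14. Ccl5, which attracts T cells and monocytes, rose in knockout muscle at day 14 by 1.86 (at least 2.29-fold) and was 1.46 log2 higher in denervated knockout than denervated wild type muscle at that day (limma adjusted p = 0.0377).

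Of 9 other CXC, CX3C and XC chemokines tested, 2 rose in each genotype at day 3, and 4 in knockout and 1 in wild type muscle at day 14, and 0 fell. Cxcl14 rose by 1.24 log2 in knockout and 1.59 in wild type muscle at day 3 and by 0.75 in knockout muscle at day 14. Cx3cl1, the membrane-bound ligand of Cx3cr1, rose by 0.82 in knockout muscle at day 3 and by 1.26 in knockout and 0.85 in wild type muscle at day 14. Pf4 rose by 0.92 in wild type muscle at day 3 and Cxcl16 by 0.85 in knockout muscle at day 14. The neutrophil attractants Cxcl2, Cxcl3 and Cxcl5 were detected on no array, and Cxcl1, a neutrophil attractant too and named for its role after its values were seen, did not pass in any of the 4 pairs. The list's median log2 changes were 0.05 in knockout and 0.43 in wild type muscle at day 3 and 0.75 and -0.32 at day 14.

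Of 10 chemokine receptors tested, 1 rose in each of the 4 pairs and 4 fell in knockout and 3 in wild type muscle at day 3 and 3 in knockout and 4 in wild type muscle at day 14. The riser was Cx3cr1, the fractalkine receptor of monocytes and macrophages, by 1.15 log2 in knockout and 1.59 in wild type muscle at day 3 and by 1.39 and 0.56 at day 14. Control arrays did not detect it, so that these are at least 1.44-fold, 1.99-fold, 1.94-fold and 1.09-fold. The scavenger receptors Ackr3, which takes up Cxcl12, and Ackr2 fell in all 4 pairs, Ackr3 by 0.95, 1.09, 0.86 and 0.88 and Ackr2 by 0.84, 1.02, 1.21 and 0.90, in the same order of groups. Ccrl2, a non-signalling receptor, fell by 1.13 in wild type muscle at day 3. Cxcr4, Ccr2 and Ccr1 are named for their ligands and after their values were seen: Cxcr4 fell by 0.71 in knockout muscle at day 3 and did not pass elsewhere, and Ccr2 and Ccr1 did not pass in any pair. Ccr2 was detected on 6 of 6 denervated and 5 of 6 control arrays at day 3, and on 2 of 6 and 0 of 6 at day 14. The list's median log2 changes were -0.28 in knockout and -0.12 in wild type muscle at day 3 and 0.09 and -0.01 at day 14.

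Of 8 other S100 genes tested, 0 rose and 2 fell in knockout and 2 rose and 1 fell in wild type muscle at day 3, and 2 rose in knockout and 1 fell in wild type muscle at day 14. S100a1, the S100 protein of striated muscle that acts on calcium release, fell by 1.45 log2 in knockout and 1.14 in wild type muscle at day 3. S100a4 rose by 1.08 in wild type muscle at day 3, S100a10 fell by 1.05 in wild type muscle at day 14, and S100a13 fell by 0.87 in knockout muscle at day 3 and rose by 0.72 in knockout muscle at day 14. The list's median log2 changes were -0.36 in knockout and 0.20 in wild type muscle at day 3 and 0.29 and -0.26 at day 14.

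The receptors and adaptors of alarmin signalling were tested on 10 genes, of which 3 rose and 1 fell in knockout and 5 rose and 1 fell in wild type muscle at day 3, and 4 rose and 1 fell in knockout and 5 rose and 2 fell in wild type muscle at day 14. Tlr4, the receptor of S100a8, rose by 1.68 log2 in knockout and 1.33 in wild type muscle at day 3 and by 0.98 and 2.10 at day 14. Its rise at day 14 differed between genotypes (interaction -1.11, limma adjusted p = 0.00718), smaller in the knockout. The adaptor Myd88 rose by 1.59, 1.49, 0.70 and 1.65 and Ticam1 by 0.72, 1.24, 0.90 and 1.25 in the same order of groups. Bsg, another receptor of S100 proteins, fell by 0.83 and 0.86 at day 3 and by 1.01 in wild type muscle at day 14. The list's median log2 changes were 0.20 in knockout and 0.34 in wild type muscle at day 3 and 0.48 and 0.37 at day 14.

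Of 10 NF-kB and cytokine genes tested, 4 rose in each pair, and 0 fell in knockout and 1 in wild type muscle at day 3 and 0 in knockout and 3 in wild type muscle at day 14. The NF-kB subunit gene Nfkb2 rose by 1.97 log2 in knockout and 2.53 in wild type muscle at day 3 and by 1.61 and 1.46 at day 14, and its partner Relb by 1.97, 2.43 (at least 4.39-fold), 1.98 and 1.08. Relb was 0.89 higher in denervated knockout than denervated wild type muscle at day 14 (limma adjusted p = 0.00187), with an interaction of 0.90 (adjusted p = 0.0140). Tgfb1 rose by 1.32 and 1.09 at day 3 and by 2.82 and 2.93 at day 14, the day 3 values being at least 1.5-fold and 1.35-fold since no control array of day 3 detected it. The cytokine gene Il18 fell by 1.21 in wild type muscle at day 14, at least 1.74-fold, to below detection. Il1a, Il10 and Tnf were detected on no array, Il6 on 1 and Il1b on 2 of 24. The list's median log2 changes were 0.22 in knockout and 0.34 in wild type muscle at day 3 and 0.23 and 0.01 at day 14.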

How the data were processed

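RNA of 24 muscle samples was read on 1-colour Illumina BeadChips. The deposited non-normalized table gives an intensity per probe and array, linear and not background-subtracted as its values show, with a detection p-value; BeadStudio 3.2.3 is named per the submitters' processing notes. The authors' processed intensities, deposited in a second table, hold linear values, some below 0, whose spread is alike on each array; they were used for an alternative and for S100a8 medians.

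Background was estimated with the help of the detection p-values, 16 was added as an offset, and quantile normalization and log2 followed (neqc, limma 3.58.1, R 4.3.3). Probes detected at p under 0.05 on at least 3 of 24 arrays were kept (21997 of 46632). The brightest kept probe represented each of 11317 genes. Genes were named from GEO's platform annotation, where 29976 probes have 1 symbol, 10 several and 16646 none. Group means were fitted with limma over all 24 arrays (16 residual degrees of freedom, eBayes, two-sided) and p-values adjusted by Benjamini-Hochberg within each contrast, called under 0.05. For a group with no detecting array, a fold is a lower bound, set per array against the lowest signal called detected (or the probe itself if brighter). Arrays have no counting depth, so their number limits precision: the median standard error was 0.190 log2 between 2 groups and 0.268 for interactions. On simulated data for denervated against control wild type muscle at day 3 (11317 genes), 76% of 100 genes changed by 1 log2 and 100% of 100 changed by 2 log2 were recovered, with 11 false calls. Those genes were drawn at random from all genes. Of the 9 genes, Cxcl12 had a standard error of 0.157 between 2 groups and the others 0.297 (Ccl9) to 0.549 (Ccl8). Recovery at such larger errors was not measured.

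The genes, the gene lists and the rule for naming were chosen with earlier results of these data known. All 9 genes are named, and of each other list up to 4 with the largest log2 change among those passing after denervation, Trim63 as the check of the knockout labels, and, for each of the 9 detected on at least 12 arrays, the 3 genes of highest Pearson r, passing over predicted gene models. Markers of lymphocytes, mast cells and eosinophils, red blood cells and fibroblasts were listed too: of 4, 4, 3 and 7 tested, 0, 3, 0 and 3 passed after denervation in knockout muscle at day 3, 0, 2, 0 and 2 in wild type muscle at day 3, 1, 0, 0 and 1 in knockout muscle at day 14, and 0, 3, 0 and 3 in wild type muscle at day 14. Alternatives were another offset, median centring, the authors' values, no and stricter detection filters, the mean of a gene's probes, fits on the compared groups alone, the replicate number as a block, detected probes as a covariate, and leaving out samples.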

Additional observations from a re-analysis of the deposited data

Results flagged for a closer look

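In wild type muscle, 3 of the 9 genes had a denervated minus control difference that itself passed the test of a difference between the days, where 6.20% of all genes were lower and 13.7% differed. Day 14 minus day 3, it was -2.26 log2 for Ccl7 (limma adjusted p = 0.0224), -2.42 for Ccl12 (adjusted p = 0.0230) and -1.31 for Ccl9 (adjusted p = 0.0427). The Ccl12 value is that of the brighter of its 2 probes, which was detected in only 1 of 3 wild type controls of day 3. The contrast contains the denervation differences known when the genes were chosen. The count of 3 fell to 0 without day 3 denervated replicate 2 or 3 or day 14 control replicate 1 of the wild type. In the knockout the same interaction was 1.14 for Ccl7 and 0.96 for Ccl9, and neither passed. No cause was tested.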

How the results depend on the processing

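Over all alternatives the counts of the 9 genes called after denervation were 7 to 8 in wild type muscle at day 3, and 7 to 8 in knockout and 2 to 4 in wild type muscle at day 14. In knockout muscle at day 3 the count was 2, against 1 in a fit of the compared groups alone, 4 without denervated replicates 2 and 3 (the 2 arrays of day 3 with most detected probes, 18434 and 18520, which leaves 1 denervated sample assumed to vary like the other groups), and 1 to 5 with 1 sample left out. For knockout against wild type in denervated muscle the count was 0 under each alternative at day 3; at day 14 it was 1, against 2 with an offset of 50, 2 with median centring, 0 without a filter, 5 in a fit of the compared groups alone, 5 with detected probes as a covariate and 0 to 1 with 1 sample left out. In control muscle it was 0, against 1 with an offset of 50, 1 with the covariate and 0 to 1 with 1 sample left out. The genotype interaction had a count of 0 at day 3, with 0 to 4 when 1 sample was left out; at day 14 it was 0, against 2 with median centring, 2 with the stricter filter, 4 in a fit of the compared groups alone and 3 with the covariate, and 0 to 0 with 1 sample left out. The day interaction in wild type muscle had a count of 3 (2 to 4 over other settings, 0 to 3 with 1 sample left out); in the knockout it was 0, against 1 with an offset of 50, 3 with median centring, 1 with the stricter filter and 0 to 6 with 1 sample left out. Between control muscle of the 2 days the count was 3, against 6 with median centring, 0 with the covariate and 2 to 7 with 1 sample left out; with the covariate Ccl7 reversed to 0.24 and Ccl9 to 0.013. The cause of these changes was not tested. Summed over the 4 denervation pairs, the other S100 genes had 8 calls, against 13 with the covariate; with 1 sample left out the lists had 13 to 18 (CC), 7 to 10 (CXC, CX3C and XC), 16 to 20 (receptors), 5 to 11 (S100), 19 to 23 (alarmin receptors) and 17 to 20 (NF-kB) calls. Samples of different groups share only a replicate number: deviations of same-numbered samples correlated at -0.287 to 0.388, and in 10 of 36 comparisons (6 samples in each of 6 contrasts) a sample correlated best with its own number. With the replicate number as a block, the counts were 2, 8, 8 and 3 after denervation (knockout and wild type at day 3, then at day 14), 0, 1 and 0 for knockout against wild type (denervated at day 3, at day 14, control), 0 and 0 for the genotype interactions, 3 and 0 for the day interactions and 3 between control days. The headers name no slides, so a slide block was not run. Dim signal limits Ccl2, detected on 6 of 24 arrays, and S100a9, detected on 11.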
